A study of Mus musculus with 11 samples.

Results

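The comparison described here set mouse embryonic fibroblasts (MEFs) carrying 1 of 4 polycistronic reprogramming cassettes with the short form of Klf4 (OKMS, STEMCCA, EB-C5 and WTSI) against MEFs carrying Klf4 as the only transgene (Klf4S and Klf4L). These are 6 of the 11 arrays of the series, 4 against 2. Members were chosen by construct and not by any measured value, and all 19938 measured genes were compared. The labels name a Klf4 form only for OKMS with its partner OK+9MS and for the Klf4S and Klf4L pair, in which Klf4L carries 9 further residues. That STEMCCA, EB-C5 and WTSI hold the short form comes from the definition of the group, which could not be checked on these arrays. The Klf4-alone group therefore holds 1 array of each form.

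All cells were male F1 hybrid MEFs from 13.5 dpc embryos, with the doxycycline transactivator rtTA at the ROSA locus and a Nanog-GFP reporter. The transgenes were delivered as piggyBac transposons (PB-TAC) with the transposase plasmid pCyL43, and doxycycline was given at 1 ug/mL in embryonic stem (ES) cell medium from 24 h after transfection. Cells of all 6 constructs were sorted on day 6 for mCherry, the fluorescent reporter of these transposons, so only mCherry-positive cells entered either group. The series also holds 4 other cassettes treated and sorted alike (OSKM, OK+9MS, MKOS and OKN-HAMS), and lacZ cells harvested on day 2 without the sort. For each construct there is 1 Affymetrix mouse gene array, and the spread within a group is that between different constructs, since none was measured again. Whether the 6 cultures came from separate embryos is not given in the labels.

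Klf4 is a zinc finger transcription factor that binds CACCC-type sequences. In skin it drives the late steps of epidermal differentiation and slows the cell cycle, and in ES cells it acts in the pluripotency network with Oct4 (Pou5f1) and Sox2. In reprogramming it is supplied with these factors and with c-Myc, which promotes growth and division. Polycistronic cassettes encode the factors in a single transcript, separated by 2A peptides or ribosome entry sites, and their order and linkage set the ratio of the proteins.

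Values are the log2 signals that the authors made with RMA. A difference of 1 is a 2-fold change, and RMA can understate large ones. The level of 1194 olfactory and vomeronasal receptor genes, which fibroblasts should not express, had a median of 5.06 and a 95th percentile of 6.26 over the 6 arrays. Signals below 6.26 are called background here. Where a group mean was that low, the size of the difference is given as a lower bound or as "at least". Genes were called at a limma adjusted p under 0.05 over all 19938 genes, in 1 model over the 11 arrays, and an error after ± is the SE of that fit with 4 arrays against 2 unless another n is given. Where 4 values are listed for the cassettes, they stand in the order OKMS, STEMCCA, EB-C5, WTSI, and 2 values for Klf4 alone in the order Klf4S, Klf4L.

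The 2 groups were not equally tight. Over all genes, the difference between Klf4S and Klf4L had an SD of 0.126, while pairs of short-Klf4 cassettes gave 0.301 to 0.403. STEMCCA stood apart from the other 3 cassettes. Its difference from the Klf4-alone mean had an SD of 0.433, against 0.588 for WTSI, 0.659 for EB-C5 and 0.667 for OKMS. It had 440 genes at least 2-fold above and 270 at least 2-fold below that mean, against 798 to 1128 and 944 to 1169 in the other 3. Array medians lay between 7.188 and 7.269.

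Fibroblast markers were read first to check the labelled cell type. All 11 were above background on all 6 arrays. Vimentin (Vim) read 13.55, 13.64, 13.61 and 13.65 in the cassettes and 13.73 and 13.76 in Klf4 alone. The mean of the list was 10.66 to 11.51 in the cassettes, 11.96 on both Klf4 arrays and 10.89 in lacZ. Of 11 macrophage and blood cell markers 6 were at background on all 6 arrays, and the list means were 6.19 to 6.28 against 6.29. Endothelial markers had means of 6.81 to 6.94 against 7.02 and 7.03, and skeletal muscle markers 6.70 to 6.83 against 6.83 and 6.89. Neural crest and glial markers had means of 7.0 to 7.27 against 7.05 and 7.14. The fibroblast list, with 2 members called lower, spans the widest of these differences. The part of these shifts in the results below was not tested. In bulk samples, here and in all that follows, fewer cells of a type and less RNA per cell cannot be told apart.

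In all, 3469 genes were called, 17.4% of those tested. Of these 1635 were higher in the short-Klf4 cassettes (8.2% of all genes) and 1834 lower (9.2%). At 2-fold or more, 1124 genes were called (5.64%), 660 higher (3.31%) and 464 lower (2.33%). The median difference over all genes was -0.0142. Every cassette lay at least 2-fold above both Klf4 arrays for 316 genes (1.58%) and at least 2-fold below both for 158 genes (0.792%). The count of calls depended on having both Klf4 arrays in the fit. It was 342 without Klf4S, 319 without Klf4L and 286 with their mean counted as 1 array, and of those 286 genes all 286 were also in the full set. Calls of single lists without a Klf4 array, given below, are to be read against these totals. Without STEMCCA the count of calls rose to 5169, with 2251 higher and 2918 lower, and without OKMS it was 2156. Over the 172 called genes named here, leaving out any 1 array gave 0.752 to 1.25 times the full difference. These genes had been called in the full fit, many of them named for large differences. That choice favours a narrow range, which was not measured over all genes.

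**Figure D1:**
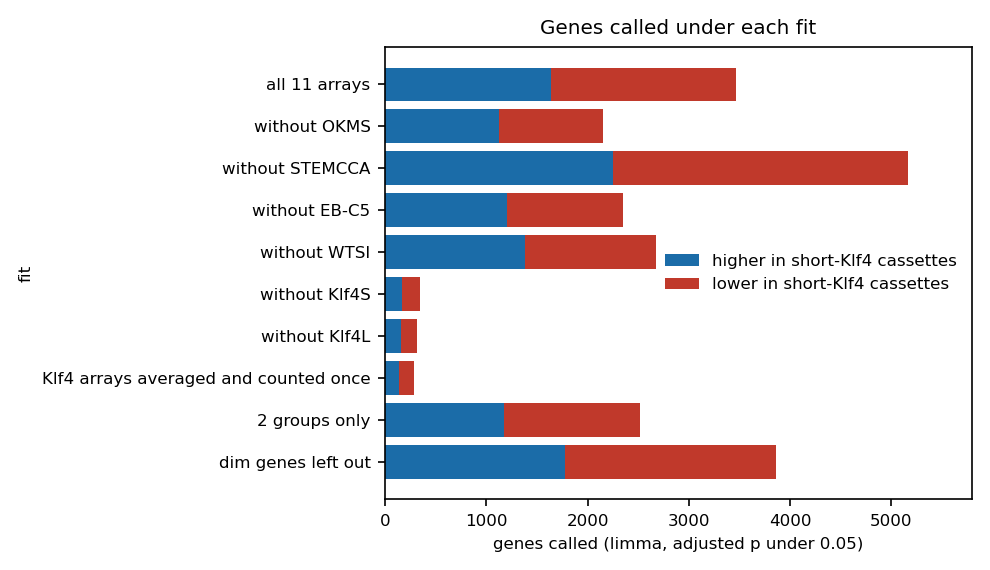
Number of genes called higher (blue) and lower (red) in the short-Klf4 cassettes than in Klf4 alone, by the arrays or genes used in the fit; bars start at 0. The fit over all 11 arrays gave 3469 calls, and fits with 1 Klf4 array or with both averaged gave 286 to 342.

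The transgenes themselves were read next. Pou5f1, which encodes Oct4, read 13.22, 11.89, 12.94 and 12.88 in the cassettes against 6.06 and 5.84 in Klf4 alone, a difference of at least 6.78 ± 0.35 (limma adjusted p = 3.31e-05). STEMCCA had the lowest Oct4 signal of the 8 cassettes. Myc read 10.76, 10.49, 9.86 and 10.77 against 9.05 and 8.65, with no overlap, and rose by 1.62 ± 0.24 (limma adjusted p = 0.00486). Its limma adjusted p was 0.0418 without Klf4S, 0.0698 without Klf4L and 0.0571 with both Klf4 arrays counted once, so the call was lost in the last 2 cases. Klf4 itself read 9.94, 9.64, 9.90 and 10.20 against 9.93 and 9.71, so the groups overlapped, and the difference was 0.10 ± 0.18 (limma adjusted p = 0.752). Sox2 read 6.58, 6.22, 6.88 and 7.76 against 6.24 and 6.33, with WTSI the highest and the others below 7 units, and had a limma adjusted p of 0.278. The sources used here do not say which parts of these transcripts are probed. The signals therefore do not separate transgene from endogenous RNA, and they give no measure of Klf4 protein.

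For 7 of the 15 largest increases the mean of Klf4 alone was at background. Zdhhc23, a palmitoyltransferase, read 11.27, 9.52, 11.38 and 10.74 against 5.82 and 5.86 (at least 4.89 ± 0.47, limma adjusted p = 0.000858). Shisa3, a regulator of WNT and FGF receptor maturation, read 11.16, 10.19, 10.56 and 10.60 against 6.18 and 5.94 (at least 4.57 ± 0.27, limma adjusted p = 7.49e-05). All 4 cassettes lay more than 4 units above Klf4 alone for Shisa3, and STEMCCA was the lowest for both genes. Ap1s3, a subunit of the clathrin adaptor AP-1, rose by at least 3.88 ± 0.42, and Bex1, an adaptor of the neurotrophin receptor, by at least 3.70 ± 0.41. Apela, the ligand of the apelin receptor, read 11.72, 11.14, 11.31 and 9.44 against 7.22 and 7.32. Slc2a3, the glucose transporter GLUT3, read 11.83, 11.09, 10.98 and 10.35 against 7.50 and 7.53, a rise of 3.55 ± 0.42 (limma adjusted p = 0.00214).

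Of the other large increases, Avil, an actin-bundling protein of the villin family, rose by 3.21 ± 0.29. Adap1, a GTPase-activating protein for Arf6, read 10.11, 7.92, 10.08 and 9.94 against 6.38 and 6.31, and Nefl, the light neurofilament chain, read 11.77, 8.89, 11.56 and 11.53 against 6.42 and 5.89. STEMCCA was over 2 units below the other 3 cassettes for both and still above both Klf4 arrays. The tissue-nonspecific alkaline phosphatase Alpl, a marker used to stain reprogramming colonies, rose by 3.32 ± 0.60, from 6.85 and 6.96 to between 9.22 and 11.29. The remaining 3 of the 15 were cell cycle genes (Mybl2, Mcm10 and Ticrr, described with their groups) and Fndc3c1, on the X chromosome, completed the set. All 15 kept their call without any 1 of the cassettes, 9 kept it without Klf4S and 8 without Klf4L. Pou5f1, Zdhhc23, Shisa3, Ap1s3, Bex1, Slc2a3, Avil and Ticrr kept it without either. The 15 were chosen as the largest called increases, a choice that favours a kept call. Of all full-fit calls, 60.6% were kept without OKMS, 97.6% without STEMCCA, 65.1% without EB-C5 and 70.7% without WTSI. For 1 of the 15 the short-Klf4 cassettes also differed from the other 4 cassettes: Fndc3c1 read 8.93, 8.67, 10.73 and 10.08 against 5.93 and 5.91 in Klf4 alone, and between 5.86 and 8.32 in the other 4 (difference 2.76 ± 0.61, n = 4 against 4, limma adjusted p = 0.0422).

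**Figure D2:**
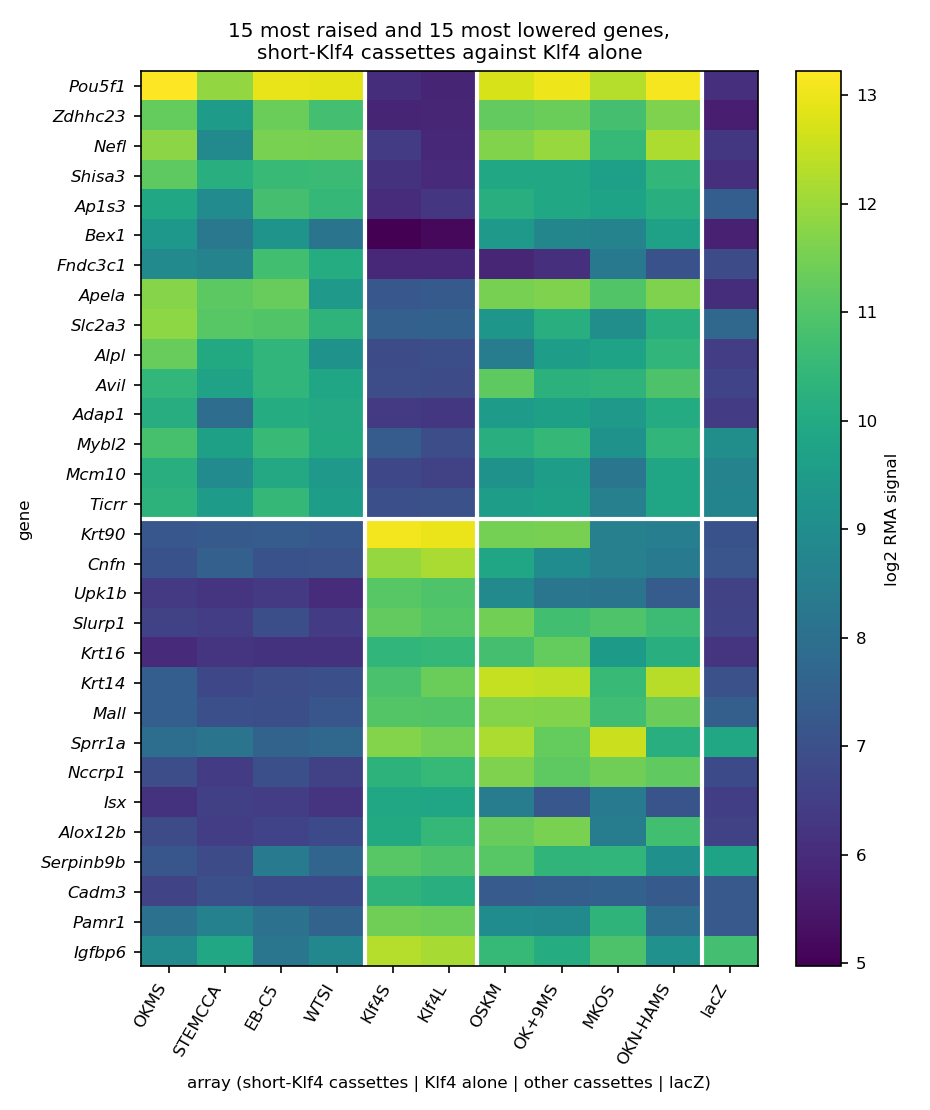
Log2 RMA signal of the 15 genes called with the largest increase and the 15 with the largest decrease in the short-Klf4 cassettes against Klf4 alone (rows) on all 11 arrays (columns, in 4 blocks). The 30 genes were chosen for their difference between these groups, and the groups do not overlap for any of them. Over all genes, all 4 cassettes lay above both Klf4 arrays for 18.5% and below both for 24.7%. Many of the lowered genes are as bright in the other 4 cassettes as in Klf4 alone.

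Genes of cell division formed the broadest increase. Mitosis is entered through cyclin B and the Aurora and Polo kinases, chromosomes are condensed and held by condensin and cohesin, and kinetochores report their attachment to the spindle through the checkpoint before the cell divides. All 83 measured genes of the 4 mitosis lists lay higher in all 4 cassettes than in both Klf4 arrays, against 18.5% of all genes that did so, and 79 of the 83 were called higher, against 8.2%. The list means were 8.78 to 10.34 in the cassettes and 7.37 to 8.51 in Klf4 alone. In lacZ, measured on day 2 without a sort, they were 9.17 to 9.98, so Klf4 alone lay below lacZ as well as below the cassettes.

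Promoters of 3 of these genes that hold both elements described here are shown as examples, as RefSeq gives them for the build GRCm38.p6, from 250 bases before to 50 bases after the transcription start, 5′ to 3′ on the gene's strand. Capitals mark the CHR, the letters TTTGAA, and the CCAAT box, elements bound in cell cycle genes by the DREAM and MuvB complexes and by NF-Y. Either strand was counted, so TTCAAA and ATTGG are the same elements read on the opposite strand. Plk1 lies at chr7:122159185-122159484 (plus strand), Aurka at chr2:172370521-172370820 (minus strand) and Kif11 at chr19:37376132-37376431 (plus strand).
Plk1: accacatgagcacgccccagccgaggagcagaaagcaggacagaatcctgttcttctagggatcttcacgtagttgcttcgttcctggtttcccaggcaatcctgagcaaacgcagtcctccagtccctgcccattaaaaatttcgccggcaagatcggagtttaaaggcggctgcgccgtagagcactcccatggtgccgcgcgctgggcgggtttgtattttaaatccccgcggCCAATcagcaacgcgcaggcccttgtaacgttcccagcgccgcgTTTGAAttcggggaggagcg
Aurka: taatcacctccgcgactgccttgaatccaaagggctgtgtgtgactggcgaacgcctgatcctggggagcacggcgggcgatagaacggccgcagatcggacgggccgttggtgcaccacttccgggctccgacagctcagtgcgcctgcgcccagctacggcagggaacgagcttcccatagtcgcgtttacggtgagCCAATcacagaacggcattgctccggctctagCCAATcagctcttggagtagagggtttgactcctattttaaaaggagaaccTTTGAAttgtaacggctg
Kif11: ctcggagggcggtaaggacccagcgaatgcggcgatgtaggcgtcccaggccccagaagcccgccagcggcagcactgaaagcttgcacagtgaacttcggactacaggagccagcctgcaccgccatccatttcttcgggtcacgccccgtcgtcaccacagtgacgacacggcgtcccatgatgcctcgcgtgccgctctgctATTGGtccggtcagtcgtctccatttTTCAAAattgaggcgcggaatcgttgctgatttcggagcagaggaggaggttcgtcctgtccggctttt
In Plk1 the CCAAT box starts at base -14 and the CHR at base 31 from the start. In Aurka the CCAAT boxes start at bases -51 and -19 and the CHR at base 33, and in Kif11 the CCAAT box starts at -45 and the CHR at -19. Among the mitosis genes with a promoter in the table, 43 of 70 (61.4%) held TTTGAA on either strand, against 15.2% of 15614 promoters of measured genes. CCAAT was in 48 of 70 (68.6%), against 38.2%. Of other genes named here, Bub1 held 2 CCAAT boxes and 0 CHR in this window, and Nusap1 and Mybl2 held 0 of either. These are counts of letters in a fixed window and do not show that a factor was bound.

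Among regulators of mitotic entry and exit, 20 of 21 rose, with a median difference of 1.84. Plk1, the Polo kinase, read 11.77, 11.42, 11.71 and 11.45 against 9.29 and 9.18 (difference 2.35 ± 0.27, limma adjusted p = 0.00189). Aurka, the Aurora A kinase, read 10.75, 10.05, 10.79 and 10.40 against 8.07 and 7.99 (2.47 ± 0.35). The cassettes sat within 0.36 of each other for Plk1 and within 0.74 for Aurka, and lacZ read 11.41 and 10.11. Mybl2, the B-Myb protein that activates late cell cycle genes, rose by 3.12 ± 0.41, and Fbxo5, the inhibitor of the anaphase-promoting complex, by 2.51 ± 0.34. Cdc20, which activates that complex, and Ccnb2, cyclin B2, were added after their values were seen and rose by 2.20 ± 0.31 and 1.73 ± 0.25.

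All 25 kinetochore and checkpoint genes rose (median 1.82). Bub1, a checkpoint kinase, read 10.27, 10.12, 10.90 and 9.70 against 7.31 and 7.50, and rose by 2.84 ± 0.37 (limma adjusted p = 0.00276). The shugoshins Sgo1 and Sgo2a, which protect centromeric cohesion, rose by 2.50 ± 0.29 and 2.39 ± 0.31, and Cenpu of the inner kinetochore by 2.35 ± 0.27. All 22 spindle and cytokinesis genes rose too (median 1.97). Nusap1, a microtubule-bundling protein, read 10.64, 10.24, 10.68 and 10.20 against 7.87 and 8.0 (2.51 ± 0.23, limma adjusted p = 0.000765). Kif11, the motor that separates the spindle poles, rose by 2.44 ± 0.30, the microtubule depolymerase Kif2c by 2.40 ± 0.28 and Kif18b by 2.38 ± 0.34. Of 15 condensation and cohesion genes 12 rose (median 1.96), among them the cohesin acetyltransferase Esco2 (2.50 ± 0.27), the condensin subunits Ncapg (2.39 ± 0.30) and Ncaph (2.14 ± 0.25), and Mki67, the Ki-67 proliferation marker (2.12 ± 0.27).

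Calls in these lists fell in number when a Klf4 array was left out. Without Klf4S and without Klf4L, 9 and 7 of the entry and exit regulators, 12 and 11 of the kinetochore genes, 13 and 13 of the spindle genes and 8 and 7 of the condensation genes were called, with medians of 1.74 to 1.97. Without STEMCCA 20, 25, 22 and 12 were called. The short-Klf4 cassettes differed from the other 4 cassettes in 1 of the 83 genes, a spindle gene that was higher.

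Genes of DNA replication lay above Klf4 alone as widely, where 8.2% of all genes were called higher. Origins are licensed in G1 by loading the MCM helicase and fired in S phase, when polymerases and ribonucleotide reductase supply the fork. Of 20 licensing genes 19 rose (median 1.67), of 28 fork and nucleotide genes 27 (median 1.40), and of 15 genes of homologous recombination and repair 14 (median 1.67). The licensing mean was 9.08 to 9.71 in the short-Klf4 cassettes and 7.85 and 7.77 in Klf4 alone. It was 9.13 in lacZ and 8.55 to 9.45 in the other 4 cassettes. In the same order, the fork means were 9.7 to 10.22, 8.49 and 8.52, 9.75, and 9.18 to 9.96. The repair means were 8.02 to 8.7, 6.65 and 6.72, 8.0, and 7.55 to 8.44. Klf4 alone thus lay below lacZ and the other 4 cassettes in each list. No gene of these lists was called against the other 4 cassettes. Mcm10, a firing factor, read 10.13, 8.96, 9.96 and 9.42 against 6.76 and 6.55 (2.96 ± 0.46, limma adjusted p = 0.00517). Ticrr, the treslin protein needed to fire origins and not a member of the lists, read 10.30, 9.51, 10.46 and 9.58 against 6.99 and 7.02 (2.96 ± 0.38). STEMCCA was the lowest cassette for Mcm10 and Ticrr, and all cassettes lay over 2 units above Klf4 alone. The helicase subunits Mcm5, Mcm6 and Mcm7 rose by 2.56 ± 0.41, 2.32 ± 0.30 and 2.25 ± 0.33. At the fork, the polymerase subunits Pole and Pola1 rose by 2.37 ± 0.32 and 2.09 ± 0.34, the ribonucleotide reductase subunit Rrm2 by 2.27 ± 0.35 and the histone chaperone Asf1b by 2.35 ± 0.32. Among repair genes, the checkpoint kinase Chek1 rose by 2.69 ± 0.41, the exonuclease Exo1 by 2.56 ± 0.44, Brca1 by 2.31 ± 0.35 and the helicase Blm by 2.12 ± 0.32.

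The replication promoters shown are those of 2 helicase subunits that hold the E2F site, with capitals for that site, the letters TTTCCCGC or TTTGGCGC on either strand (GCGCCAAA is TTTGGCGC read on the opposite strand). Mcm6 lies at chr1:128359656-128359955 (minus strand) and Mcm5 at chr8:75109259-75109558 (plus strand), in the same build.
Mcm6: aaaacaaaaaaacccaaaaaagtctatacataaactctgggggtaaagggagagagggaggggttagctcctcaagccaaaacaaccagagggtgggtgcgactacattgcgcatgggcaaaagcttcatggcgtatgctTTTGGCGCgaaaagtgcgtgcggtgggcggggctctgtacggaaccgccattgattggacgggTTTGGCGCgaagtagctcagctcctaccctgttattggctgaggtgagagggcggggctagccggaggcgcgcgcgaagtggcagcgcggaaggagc
Mcm5: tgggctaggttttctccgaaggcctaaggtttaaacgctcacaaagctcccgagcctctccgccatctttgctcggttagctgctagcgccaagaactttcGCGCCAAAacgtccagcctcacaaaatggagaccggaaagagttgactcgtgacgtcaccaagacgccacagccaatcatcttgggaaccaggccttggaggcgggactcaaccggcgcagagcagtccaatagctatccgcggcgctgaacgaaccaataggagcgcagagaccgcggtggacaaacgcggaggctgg
Mcm6 held 2 such sites, starting at bases -110 and -47, and Mcm5 held 1, starting at -149. Mcm10, with the largest rise in the licensing list, held 0. Of 40 licensing and fork genes for which RefSeq gave a promoter, 12 held the letters (30.0%), against 2.32% of all measured genes with a promoter and 12.9% of the mitosis genes. TTTGAA was in 17.5% of the 40. Few of the calls among replication genes were kept with 1 Klf4 array: 2 of the licensing, 2 of the fork and 0 of the repair genes were called without Klf4S, and the counts were the same without Klf4L, while medians without either array were 1.35 to 1.77. Of the members named, Mcm6 and Pole were called without either array, as was Ticrr outside the lists, and Mcm10 had a limma adjusted p of 0.0593 without Klf4S and 0.0663 without Klf4L.

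Regulators of the G1 to S step did not move as 1 group. Of 19 genes 6 rose and 2 fell, with a median of 0.38, against 8.2% and 9.2% of all genes. Cyclin E2 (Ccne2) rose by 1.86 ± 0.27, the repressor E2f7 by 1.37 ± 0.22, the retinoblastoma gene Rb1 by 1.30 ± 0.18 and Cdk2 by 0.92 ± 0.22. The D cyclins, named after their values were seen, went the other way: Ccnd1 read 12.34, 12.10, 12.07 and 12.28 against 12.95 and 12.84 (-0.70 ± 0.09, limma adjusted p = 0.00257), and Ccnd3 fell by 0.59. Ccnd1 kept its call without any 1 of the 6 arrays and was also lower than in the other 4 cassettes (-0.55 ± 0.07, limma adjusted p = 0.00471). Without Klf4S or without Klf4L, 1 member rose and 1 fell. Of 6 CDK inhibitors only Cdkn2b, the p15 inhibitor, was called, at 8.95, 9.64, 8.75 and 9.17 against 10.53 and 10.54 (-1.41 ± 0.31, limma adjusted p = 0.0183, lost without either Klf4 array). Of 16 p53 targets 1 was called, the stress gene Gadd45a, which fell by 1.11.

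Genes of ribosome production and biosynthesis, many of them targets of MYC, were higher in the cassettes. Of 31 genes of rRNA synthesis and ribosome assembly 26 rose, with a median of 1.03, against 8.2% of all genes. All 31 lay higher in every cassette than in both Klf4 arrays, against 18.5% of all genes. Dkc1, the pseudouridine synthase of box H/ACA particles, read 11.05, 10.21, 11.07 and 10.33 against 8.67 and 8.64 (2.01 ± 0.31), and its partner Nhp2 rose by 1.72 ± 0.29. The RNA polymerase I subunit Polr1b rose by 1.59 ± 0.31 and the nucleolar phosphoprotein Nolc1 by 1.40 ± 0.22. STEMCCA had the lowest list mean of the 4 cassettes, 10.07 against 10.50 to 10.69, with 9.42 and 9.44 in Klf4 alone and 9.87 in lacZ. Of 21 genes of nucleotide, one-carbon and serine synthesis 13 rose (median 0.78). Ppat, the first enzyme of purine synthesis, read 10.81, 9.80, 10.68 and 10.16 against 8.09 and 8.04 (2.30 ± 0.28), Cad of pyrimidine synthesis rose by 1.53 ± 0.20, Shmt1 by 2.02 ± 0.31 and Mthfd1 by 1.48 ± 0.25. Of 11 other MYC targets 6 rose (median 0.72), with the transferrin receptor Tfrc at 10.53, 9.62, 10.80 and 10.09 against 7.58 and 7.72 (2.61 ± 0.29), the chaperonin Hspd1 (1.11 ± 0.15), nucleolin Ncl (1.01 ± 0.13) and ornithine decarboxylase Odc1 (0.96 ± 0.24). Without Klf4S 2, 3 and 3 members of these lists were called, and without Klf4L 3, 3 and 3, with Ppat, Cad, Tfrc, Hspd1 and Ncl called in both cases.

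Some chromatin genes rose as well, where 8.2% of all genes were called higher. Of 10 genes of DNA methylation and demethylation 3 rose: Uhrf1, which brings the maintenance methyltransferase to new DNA (10.60, 9.65, 10.50 and 9.82 against 7.59 and 7.22, difference 2.74 ± 0.44), the remodeller Hells (1.98 ± 0.32) and Dnmt1 itself (1.31 ± 0.19). The de novo methyltransferase Dnmt3a had a difference of -0.04 and Dnmt3b of 0.63, neither called. Of 20 polycomb and histone modifier genes 10 rose (median 0.46). Ezh2, the catalytic subunit of polycomb repressive complex 2, read 11.54, 11.01, 11.65 and 10.96 against 9.68 and 9.57 (1.66 ± 0.21, limma adjusted p = 0.00254), its partner Suz12 rose by 0.95 ± 0.13, the H3K9 methyltransferase Suv39h2 by at least 2.08 ± 0.31 and the H3K4 adaptor Wdr5 by 1.29 ± 0.21. Ezh1, the paralog of Ezh2, had a difference of 0.04. Most calls of both lists depended on having both Klf4 arrays, as did most calls over all genes. Medians without Klf4S and without Klf4L were 0.64 and 0.64 for the methylation genes and 0.47 and 0.5 for the modifiers.

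**Figure D3:**
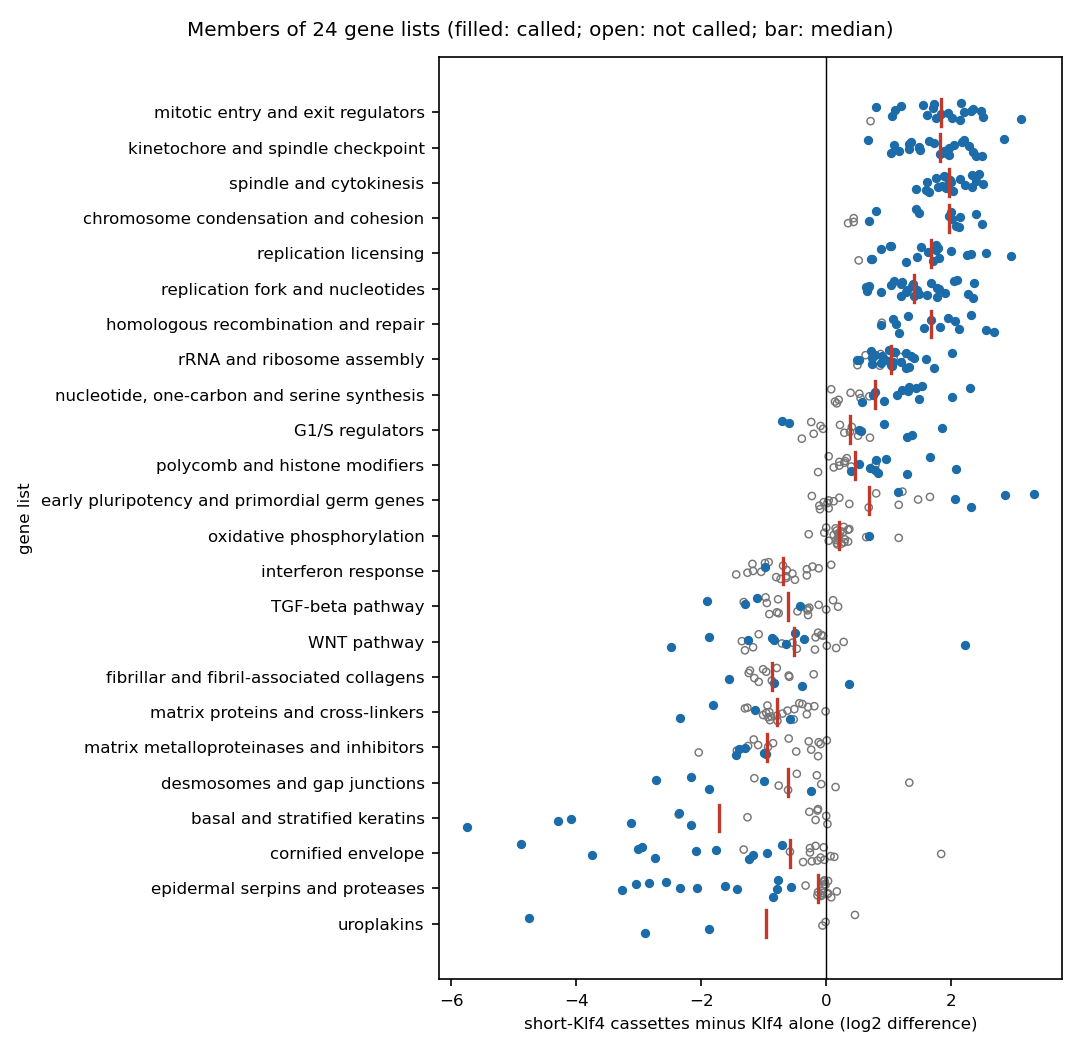
Difference between the short-Klf4 cassettes and Klf4 alone (x axis, log2) for each measured member of 24 gene lists (rows), filled where the gene was called and open where it was not, with the list median as a bar. All mitosis and replication genes lie above 0, and the keratin, cornified envelope, serpin and uroplakin lists hold the largest decreases beside members near 0.

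Genes of early reprogramming rose in part and unevenly among the cassettes. Of 21 early pluripotency and primordial germ genes 5 rose (median 0.68), against 8.2% of all genes. None fell, and 6 were at background on all 6 arrays. Alpl is given above. Fut9, the fucosyltransferase that makes the SSEA-1 antigen, read 9.23, 7.70, 9.01 and 7.57 against 5.48 and 5.56 (at least 2.86 ± 0.48, limma adjusted p = 0.00684) and was at 5.84 to 6.61 in the other 4 cassettes, from which the short-Klf4 group differed by 2.00 ± 0.39 (limma adjusted p = 0.0244). The ES cell gene L1td1, whose product binds RNA, rose by 2.32 ± 0.44 and the let-7 inhibitor Lin28b by at least 1.15 ± 0.33. Epcam, an epithelial adhesion molecule, read 9.26, 8.17, 7.99 and 6.82 against 5.98 and 6.03 (at least 2.06 ± 0.53), with WTSI under 1 unit above Klf4 alone. The calls of this list depended on having both Klf4 arrays, as did most calls over all genes. Its median was 0.65 without Klf4S and 0.7 without Klf4L.

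Of 20 genes of the late pluripotency network Mybl2, described above, rose and Lefty1, a Nodal inhibitor, fell by 0.43. Over all genes 8.2% were called higher and 9.2% lower. Other members of these lists are named because of their values and were not called. Of the late list, Zfp42, Prdm14, Klf2 and Dnmt3l had differences of 0.05, -0.03, 0.01 and -0.08, while a few genes split the cassettes. Nanog read 11.05, 10.60, 9.76 and 7.33 against 6.69 and 6.57, above Klf4 alone in 4 of 4 cassettes by amounts from under 1 to over 4, with a limma adjusted p of 0.0596 over all arrays and 0.238 without Klf4S or without Klf4L. Nr0b1, the Dax1 repressor of the ES cell network, read 11.81, 7.61, 8.83 and 7.07 against 5.66 and 5.53 (limma adjusted p = 0.116). Sall4, of the early list, read 10.12, 8.37, 9.02 and 7.37 against 7.14 and 6.98 (limma adjusted p = 0.123). OKMS was the highest and WTSI the lowest cassette for all 3. Utf1, a chromatin factor of ES cells in the early list, was highest in OKMS (10.89, with 6.64 to 7.25 in the other 3), as was the nuclear receptor Nr5a2 (8.26, with 6.00 to 7.05). Lin28a read 11.66 in EB-C5 and 6.74 to 6.96 in the other 3 against 6.95 and 6.69. The labels do not list the factors of EB-C5, a design known as background for carrying Lin28 as well, and transgene and endogenous RNA cannot be told apart in this signal. Fbxo15, a classic reporter gene of reprogramming, was above background in EB-C5 alone (7.84).

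Genes known from neurons were called higher about as often as all genes. Nefl and Bex1, given above, were the 2 called of 19 neuronal and neuroendocrine genes, against 8.2% of all genes, with a median difference of 0.04 for the list, and Bex1 was called without either Klf4 array. Sv2b, a synaptic vesicle protein, read 8.90, 8.11, 10.38 and 8.78 against 6.62 and 6.04 (2.71 ± 0.54) and lay between 6.38 and 7.17 in the other 4 cassettes (difference 2.08 ± 0.44, limma adjusted p = 0.0352). Outside these genes, Lef1, the WNT effector, read 9.75, 8.49, 9.56 and 9.51 against 7.0 and 7.21 (2.22 ± 0.35), and Lama1, a laminin chain of early embryos, rose by 2.81 ± 0.37.

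The largest decreases were in genes of stratified epithelium. The epidermis is built from basal cells with keratins 5 and 14 whose daughters switch on differentiation keratins, cross-link a cornified envelope under the membrane and shed through the action of kallikrein proteases, which serpins restrain. Klf4 is known as a factor of this late programme in mouse skin. All 15 of the largest decreases were bright in Klf4 alone, at 9.86 to 13.07, and lower in all 4 cassettes. Slurp1, a secreted protein of the cornified layer, read 6.60, 6.46, 6.95 and 6.43 against 11.25 and 11.03 (-4.53 ± 0.23, limma adjusted p = 3.31e-05). In lacZ it read 6.65, and in the other 4 cassettes 10.64 to 11.46. The short-Klf4 cassettes thus lay at the lacZ level, and both Klf4 alone and the other cassettes lay over 3 units higher.

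**Figure D4:**
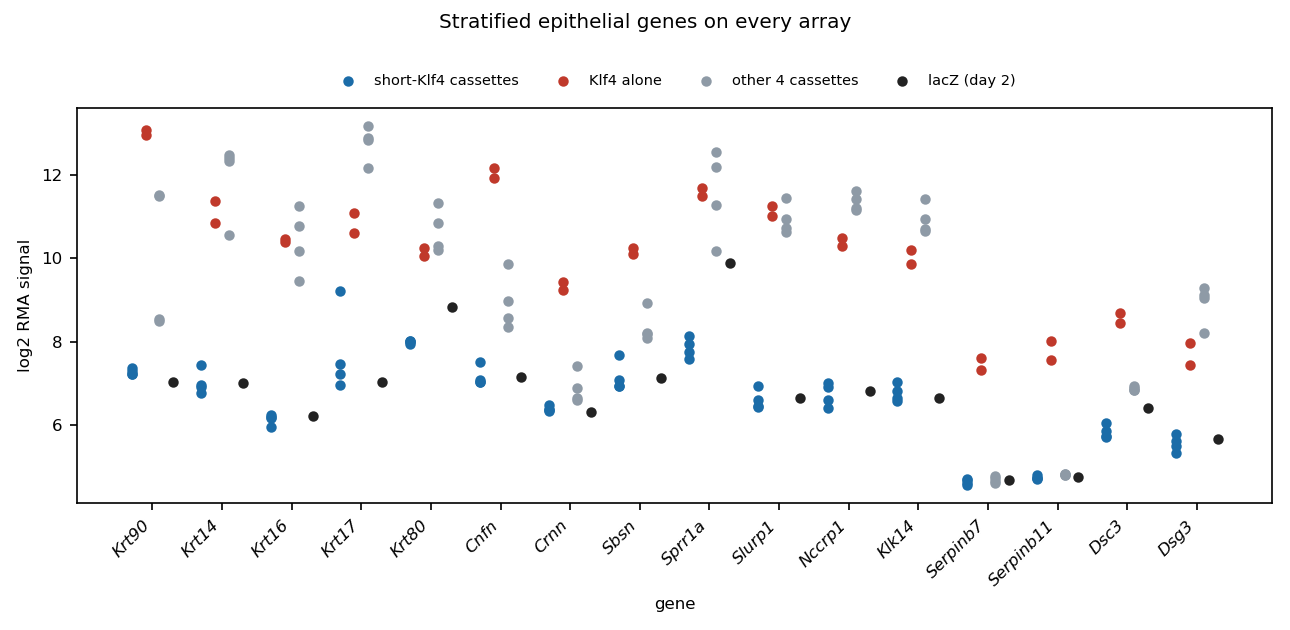
Log2 RMA signal of 16 genes of stratified epithelium on every array, with 1 point per array and colours for the 4 groups. The 16 shown are all called decreases. That choice largely sets the short-Klf4 cassettes below both Klf4-alone arrays, as they are for all 16. The share of all genes with this order was 24.7%. The other 4 cassettes lie near Klf4 alone for Slurp1, Krt16 and Klk14 and near the short-Klf4 cassettes for Serpinb7 and Serpinb11.

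Keratins, the filament proteins of epithelia, fell in part. Of 14 basal and stratified keratins 6 fell (median -1.71), against 9.2% of all genes called lower, with the rest not called. Krt90 read 7.22, 7.30, 7.38 and 7.23 against 13.07 and 12.97 (-5.74 ± 0.87, limma adjusted p = 0.005), the largest of the 15 decreases. Krt14, the basal keratin, read 7.45, 6.76, 6.91 and 6.97 against 10.84 and 11.37 (-4.08 ± 0.50, limma adjusted p = 0.00251), and Krt16, a keratin of activated epidermis, 5.95, 6.24, 6.18 and 6.19 against 10.39 and 10.46, a lower bound (-4.29 ± 0.40). Krt17 fell by 3.13 and read 9.21 in OKMS against 6.96 to 7.47 in the other 3 cassettes. Krt80 (-2.17 ± 0.27) and Krt6a (-2.35 ± 0.38, a lower bound) fell too. Krt5, the partner of Krt14 in basal cells, had a difference of -0.27, and Krt1 and Krt10 of the suprabasal layers had -0.13 and 0.00. Krt6b split the cassettes, at 11.37, 7.84, 5.96 and 6.07 against 10.00 and 10.35, and was not called. Of 6 simple epithelial keratins 0 were called. Krt8 read 11.61, 9.18, 9.35 and 9.24 against 10.97 and 11.23, with OKMS above Klf4 alone and the other 3 below.

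The promoter of Krt14 is shown as that of the basal keratin, at chr11:100205981-100206280 (minus strand, GRCm38.p6), with capitals for the letters CACCC, the core of sequences that Klf4 is known to bind.
Krt14: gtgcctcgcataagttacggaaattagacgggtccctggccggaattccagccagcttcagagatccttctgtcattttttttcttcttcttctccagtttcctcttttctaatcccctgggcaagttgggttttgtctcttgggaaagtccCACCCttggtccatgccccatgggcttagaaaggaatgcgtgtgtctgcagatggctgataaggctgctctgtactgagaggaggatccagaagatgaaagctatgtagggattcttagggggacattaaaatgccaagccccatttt
The match starts at base -98. CACCC was in 32 of 52 promoters of the epidermal genes (61.5%), and in 60.1% of all promoters of measured genes, so the letters did not set these genes apart.

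Of 25 cornified envelope genes 11 fell (median -0.58), against 9.2% of all genes. None rose, and 5 were at background on all 6 arrays. Cnfn, cornifelin, read 7.04, 7.51, 7.04 and 7.09 against 11.92 and 12.18 (-4.88 ± 0.36, limma adjusted p = 0.000254). The small proline-rich proteins Sprr1a (-3.75 ± 0.55) and Sprr3 (-2.74 ± 0.35), suprabasin (Sbsn, -3.01 ± 0.27) and cornulin (Crnn, -2.95 ± 0.20) fell with it. For the transglutaminases that cross-link the envelope, Tgm1 read 8.10, 7.76, 7.45 and 7.40 against 8.48 and 8.74 (-0.94 ± 0.27, limma adjusted p = 0.0449), and Tgm3 read 10.32, 7.08, 8.31 and 9.16 against 6.90 and 6.86 and was not called. Krtdap, a keratinocyte differentiation protein, was at 10.19 in OKMS and at 5.59 to 6.18 in the other 3, with 8.10 and 8.59 in Klf4 alone. Outside the list, Alox12b, the lipoxygenase of the skin's lipid barrier, fell (-3.52 ± 0.73), and so did Nccrp1, a lectin-like protein of stratified epithelia (-3.67 ± 0.18, limma adjusted p = 3.31e-05).

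Of 28 epidermal serpins and proteases 12 fell (median -0.14), against 9.2% of all genes, and 11 were at background on all 6 arrays. Klk14, a kallikrein of the cornified layer, read 6.59, 6.64, 7.03 and 6.83 against 9.87 and 10.21 (-3.27 ± 0.22, limma adjusted p = 0.000144). Serpinb5, maspin, read 5.21, 5.07, 5.40 and 5.0 against 7.68 and 7.79 (-2.57 ± 0.21, a lower bound). Serpinb11 and Serpinb7 were at 4.56 to 4.80 in the 4 cassettes against 7.33 to 8.01 in Klf4 alone. Of 6 genes listed as uroplakins, membrane plaque proteins of the bladder lining, 3 fell. Upk1b read 6.36, 6.25, 6.36 and 6.03 against 11.07 and 10.94 (-4.76 ± 0.33, a lower bound, limma adjusted p = 0.000168). Psca, a surface antigen of the same epithelium that was listed with them, fell (-2.90 ± 0.32), as did Upk3b (-1.87 ± 0.17). Among the other large decreases were the membrane proteolipid Mall (-3.88 ± 0.26), the intestinal homeobox gene Isx (-3.52 ± 0.38), the adhesion molecule Cadm3 (-3.42 ± 0.11), Serpinb9b (-3.48 ± 0.53), Pamr1 (-3.33 ± 0.53) and the growth factor binding protein Igfbp6 (-3.28 ± 0.53). Il1f9, the epithelial cytokine IL-36 gamma, read 5.30, 5.26, 5.29 and 5.28 against 7.43 and 7.99 (-2.43 ± 0.18, a lower bound).

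With 1 Klf4 array part of these calls was kept. For the 15 largest decreases, the choice by size favours a kept call. Without Klf4S and without Klf4L, 6 and 6 of the cornified envelope genes, 4 and 3 of the keratins, 8 and 7 of the serpins and proteases and 3 and 3 of the uroplakins were called lower, against 10 to 11, 6 to 7, 11 to 12 and 3 without any 1 cassette. Of the 15 largest decreases 9 were called without Klf4S and 9 without Klf4L: Cnfn, Upk1b, Slurp1, Krt16, Krt14, Mall, Nccrp1, Isx and Cadm3. For Krt90, limma adjusted p was 0.0638 without Klf4S and 0.0605 without Klf4L.

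The direct test against the other 4 cassettes split these genes. Of those cassettes the labels name the longer Klf4 form for OK+9MS only. Over all genes, 800 differed between the 2 cassette groups (4.01%), 200 higher in the short-Klf4 group (1.0%) and 600 lower (3.01%). At 2-fold or more, 318 differed (1.59%), 31 higher (0.155%) and 287 lower (1.44%). Of the keratins 6 of 14 were lower (median -2.71), of the cornified envelope genes 9 of 25, of the serpins and proteases 7 of 28, and of the 15 largest decreases 12. Nccrp1 (-4.62 ± 0.15), Slurp1 (-4.34 ± 0.19), Mall (-4.22 ± 0.21), Krt14 (-4.93 ± 0.41), Krt17 (-5.06 ± 0.46) and Klk14 (-4.16 ± 0.18) were all lower, with 4 against 4 arrays, and so was Krt16, with a lower bound (-4.28 ± 0.32). Both differences share the 4 short-Klf4 arrays and are given side by side only. For Cnfn and Upk1b the other cassettes lay between, at 8.35 to 9.86 and 7.38 to 8.92. Serpinb7, Serpinb11, Crnn, Il1f9 and the endothelial and junctional protein Esam were not called against the other cassettes, with Serpinb7, Serpinb11 and Il1f9 at background in both groups and differences of -0.51 for Crnn and -0.09 for Esam, and all 8 cassettes were below both Klf4-alone arrays for them.

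Cell junction genes had more calls against the other cassettes than against Klf4 alone. Over all genes, 3.01% were called lower against the other cassettes, and 8.2% higher and 9.2% lower against Klf4 alone. Of 23 cadherins, claudins and tight junction genes Epcam rose and 3 fell against Klf4 alone (median 0.22), namely Cldn1 (-1.52 ± 0.31), F11r (-1.38 ± 0.28) and Tjp1 (-0.52 ± 0.14). Against the other 4 cassettes 13 of the 23 were lower (median -1.13). E-cadherin (Cdh1), whose gain marks the change of fibroblasts to an epithelial state, read 10.10, 9.63, 7.43 and 7.65 against 7.05 and 7.42, and 11.03 to 11.46 in the other 4 cassettes. It was not called against Klf4 alone (1.47 ± 0.70, limma adjusted p = 0.184) and was lower than in the other cassettes (-2.62 ± 0.57, limma adjusted p = 0.0399). OKMS and STEMCCA lay over 2 units above both Klf4 arrays for Cdh1, and EB-C5 and WTSI under 1 unit above. Spint1, a protease inhibitor of epithelial surfaces, also split the cassettes, at 10.52, 9.90, 8.35 and 7.27 against 7.33 and 7.27. For it OKMS and STEMCCA were again over 2 units above both Klf4 arrays, EB-C5 was over 1 unit above, and WTSI was at their level. Of 13 desmosome and gap junction genes 5 fell (median -0.61), among them the desmosomal cadherins Dsc3 (5.75, 6.04, 5.85 and 5.72 against 8.44 and 8.68, -2.72 ± 0.10, limma adjusted p = 3.94e-06) and Dsg3 (-2.16 ± 0.29), both lower bounds. The connexin Gjb2 (-1.87 ± 0.49) and plakophilin Pkp1 (-0.99 ± 0.28) fell too. Against the other cassettes 8 of the 13 were lower. Against Klf4 alone, the calls among the 23 and most of those among the 13 depended on having both Klf4 arrays. So did most calls over all genes.

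Among 15 epithelial transcription and splicing regulators 2 rose (Tfap2a by 1.11 and Elf3 by 0.44) and 2 fell. The counts of this paragraph are to be read against 8.2% of all genes called higher and 9.2% called lower. Grhl3, a grainyhead factor of the skin barrier, read 8.39, 8.52, 7.74 and 7.55 against 9.53 and 9.46 (-1.44 ± 0.29), and Gata3 fell (-1.26 ± 0.30) and was at 10.31 in lacZ. The calls among the 15 depended on having both Klf4 arrays, as did most calls over all genes. Of 17 basement membrane genes Lama1 rose and 2 fell, Lamb2 (-0.86 ± 0.19) and Lamb3, a laminin chain of skin, which read 7.01, 7.17, 6.90 and 7.14 against 8.06 and 8.04 (-0.99 ± 0.11). Lamb3 kept its call without any 1 of the 6 arrays and was at 8.51 to 8.83 in the other cassettes.

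**Figure D5:**
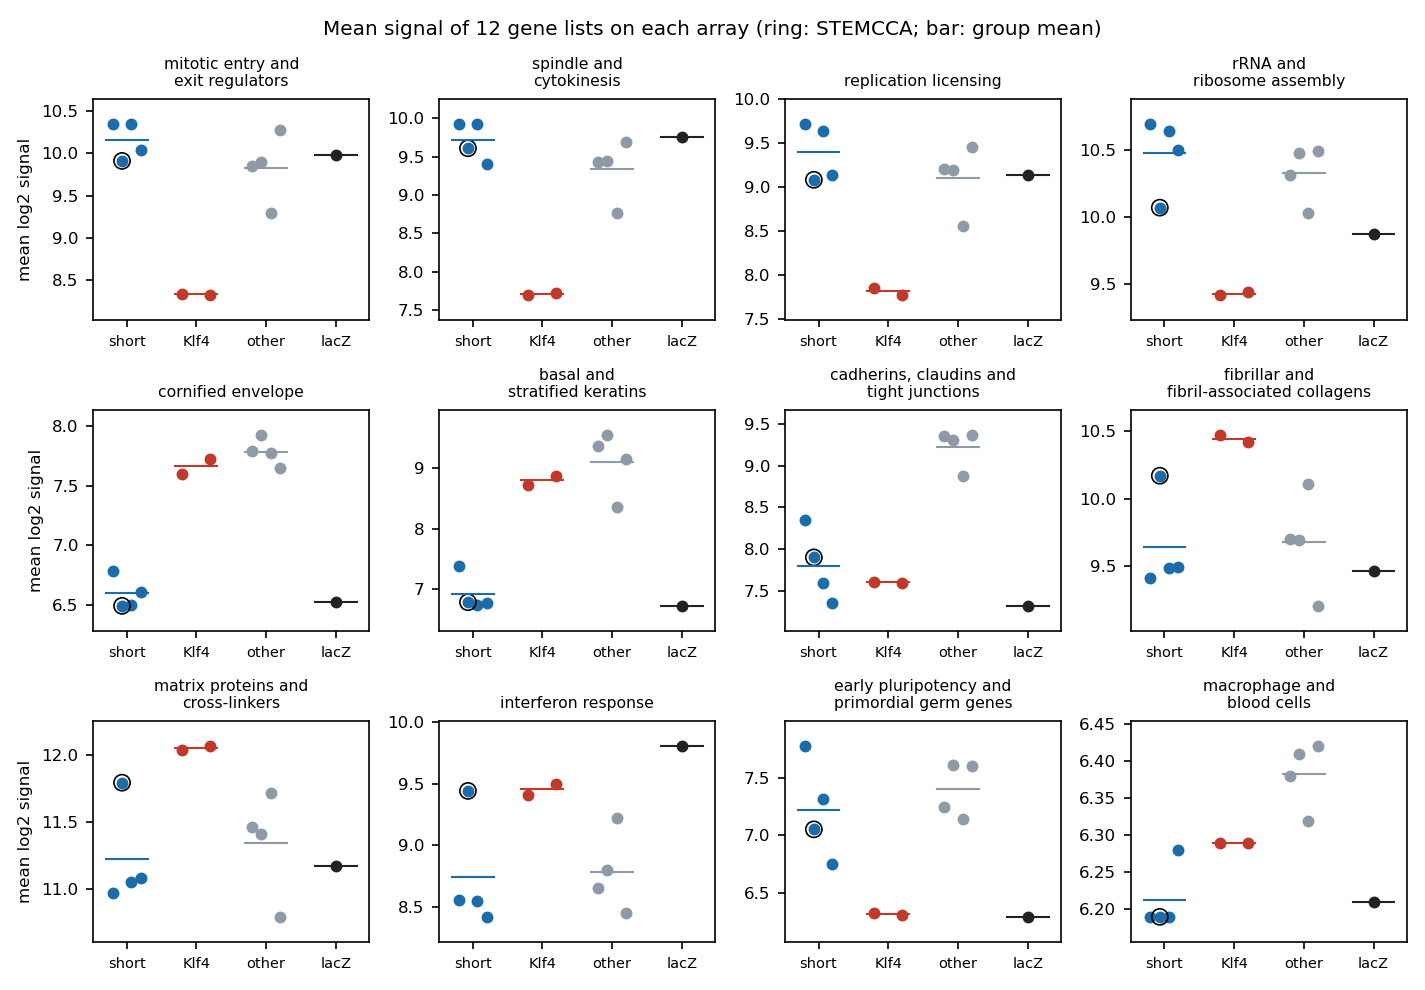
Mean log2 signal of 12 gene lists on each array, by group, with the group mean as a bar and a ring around STEMCCA. Klf4 alone is lowest for division, replication and ribosome lists, the short-Klf4 cassettes lie near lacZ for the epidermal lists, and STEMCCA is the short-Klf4 cassette closest to Klf4 alone for the collagen, matrix and interferon lists.

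A minority of genes of the fibroblast matrix was called lower, and the number depended on STEMCCA and on both Klf4 arrays. Over all genes 9.2% were called lower. Of 15 fibrillar and fibril-associated collagens 3 fell and 1 rose (median -0.87), and 13 of 15 lay lower in all 4 cassettes than in both Klf4 arrays, against 24.7% of all genes. Col3a1 read 9.54, 10.94, 9.94 and 9.81 against 11.31 and 11.25 (limma adjusted p = 0.0626), and Col1a1 12.02, 12.87, 12.19 and 12.34 against 13.21 and 13.09 (limma adjusted p = 0.0757), with STEMCCA closest to Klf4 alone. The called members were Col8a1 (-1.55 ± 0.44), Col14a1 (-0.84 ± 0.23), Col16a1 (-0.38 ± 0.11) and, higher, Col15a1 (0.37 ± 0.06). Without STEMCCA 13 of the 15 fell, in a fit that called 2918 of all 19938 genes lower. The list median was -0.9 without Klf4S and -0.88 without Klf4L, in fits that kept few of all calls and none of these.

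Of 25 other matrix proteins and cross-linkers 4 fell (median -0.79). A difference above 0 was found for 0 of the 25, and the median difference over all genes was -0.0142. The full-fit counts of this paragraph are to be read against 9.2% of all genes called lower. Decorin (Dcn), a collagen-binding proteoglycan, read 10.07, 11.34, 11.53 and 10.87 against 12.75 and 12.77 (-1.81 ± 0.41), and the microfibril protein Mfap5 read 8.97, 9.62, 7.93 and 8.26 against 11.09 and 10.98 (-2.34 ± 0.67). Fibulin 2 (Fbln2, -1.14 ± 0.25) and the procollagen enhancer Pcolce (-0.58 ± 0.15) were the others. Of 14 fibroblast markers 3 fell: S100a4 (-1.50 ± 0.35), the stromal antigen Cd248 (-1.41 ± 0.23) and the mesenchymal homeobox gene Prrx1 (-0.81 ± 0.23). Of 8 EMT factors Twist1 fell (-1.12 ± 0.32), Zeb1 read 9.99, 11.13, 10.23 and 10.00 against 11.51 and 11.41 and was not called, and Snai2 read 11.08 in STEMCCA and 11.08 in Klf4S. Without STEMCCA 12 of the 25 matrix genes, 6 of the 14 markers and 5 of the 8 factors fell. The full-fit calls of these lists depended on having both Klf4 arrays, as did most calls over all genes. The fit without STEMCCA called 2918 of all 19938 genes lower, against 1834 in the full fit. In lacZ the means of the collagen and matrix lists were 9.46 and 11.17, near those of OKMS, EB-C5 and WTSI.

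Part of the genes of signalling pathways, metalloproteinases and contractile proteins were called, to be read against 9.2% of all genes called lower and 8.2% called higher. Of 20 TGF-beta genes 4 fell (median -0.61): the receptor Tgfbr2 (9.39, 10.90, 9.96 and 9.74 against 11.96 and 11.84, -1.90 ± 0.38), the activin subunit Inhbb (-1.30 ± 0.20), the ligand Tgfb2 (-1.11 ± 0.32) and the effector Smad3 (-0.42 ± 0.12). Of 21 BMP genes 6 fell and 1 rose, with the ligands Bmp2 (-1.90 ± 0.44) and Bmp4 (-1.24 ± 0.32) and the proteinase Bmp1 (-0.97 ± 0.23) lower and the target Id2 higher (1.06 ± 0.28). Of 24 WNT genes 8 fell and 1, Lef1, rose. Dkk2, a secreted antagonist, read 8.43, 9.59, 7.32 and 7.30 against 10.73 and 10.56, and the ligand Wnt7a (-1.87 ± 0.40) and the receptor Fzd1 (-1.25 ± 0.31) fell. Of 20 metalloproteinase and inhibitor genes 5 fell and none rose, among them Timp3 (11.81, 12.25, 11.47 and 12.37 against 13.46 and 13.40, -1.45 ± 0.26), Timp1 (-1.0 ± 0.21), Mmp23 (-1.40 ± 0.41) and Mmp19 (-1.30 ± 0.34). Of 18 contractile genes 2 fell, desmin (Des, -1.40 ± 0.22) and Synpo2 (-0.28 ± 0.07), a share near that of all genes. Without STEMCCA 8 TGF-beta, 8 BMP, 12 WNT and 10 metalloproteinase genes fell, in a fit that called 2918 of all 19938 genes lower. Most full-fit calls in these 4 lists depended on having both Klf4 arrays, as did most calls over all genes.

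Interferon response genes split the cassettes. Of 21 genes 1 was called lower, the antiviral synthetase Oas2 (-0.98 ± 0.26), with a list median of -0.69. STEMCCA had a list mean of 9.44, next to 9.41 and 9.50 in Klf4 alone, and OKMS, EB-C5 and WTSI had 8.42 to 8.56. Stat2, a transducer of interferon signals, read 8.75, 10.12, 8.90 and 8.61 against 10.27 and 10.45, and Usp18, which limits the response, 9.17, 10.35, 8.42 and 8.65 against 10.49 and 10.69. Neither was called over the 4 cassettes. Without STEMCCA 13 of the 21 fell, and without any other single array 0 did. The fit without STEMCCA called 2918 of all 19938 genes lower. Among chemokines and cytokines 3 of 22 fell in the full fit, against 9.2% of all genes, namely Il1f9, Ccl8 (-0.63 ± 0.14, a lower bound) and Il11 (-0.47 ± 0.13).

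Some of the strongest changes had a wide range among the 4 cassettes. The 8 called genes with the widest range at a difference of 2 or more in size included Ly6g6c, a surface protein of the Ly6 family, at 10.26, 7.72, 7.80 and 7.01 against 10.73 and 11.11, and stratifin (Sfn), an epithelial 14-3-3 protein, at 10.05, 7.97, 7.70 and 7.53 against 10.91 and 11.10. OKMS was over 2 units above the other 3 for both and still below Klf4 alone. Among the increases, the amino acid transporter Slc7a3 read 12.40, 11.22, 10.58 and 9.41 against 8.01 and 7.93, Fcgr2b, an inhibitory Fc receptor, 8.99, 6.74, 9.78 and 9.11 against 5.83 and 6.42, and the acetyltransferase Nat8l 8.95, 7.45, 9.85 and 10.18 against 6.80 and 6.38. Hpdl, a dioxygenase-like protein, read 9.99, 7.74, 9.74 and 10.08 against 6.57 and 6.56. STEMCCA was the lowest cassette for Fcgr2b, Nat8l and Hpdl, and WTSI for Slc7a3.

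Of the 5 largest decreases against the other cassettes, Krt14, Krt17 and Ly6g6c are given above and the other 2 were not called against Klf4 alone. Dkkl1, a secreted Dickkopf-like protein, read 8.61, 6.65, 6.58 and 6.41 in the short-Klf4 cassettes and 11.62 to 12.35 in the other 4 (-4.89 ± 0.45, limma adjusted p = 0.000741), with 7.52 and 7.85 in Klf4 alone. Mal2, a protein of apical transport, read 8.11, 6.33, 6.16 and 6.11 and 11.13 to 11.94 (-4.87 ± 0.43), with 6.99 and 7.49. Higher in the short-Klf4 group than in both other groups were Bcl11a, a zinc finger repressor, at 10.15, 9.94, 9.68 and 9.72 against 8.16 and 8.25 in Klf4 alone (1.67 ± 0.22) and 7.49 to 8.33 in the other cassettes (2.01 ± 0.18), and Pllp, the membrane protein plasmolipin, at 10.09, 9.26, 8.24 and 8.25 against 6.50 and 6.38 (2.51 ± 0.51) and 6.44 to 7.55 (2.06 ± 0.42). Nnat, an imprinted gene, was higher than in the other cassettes (2.24 ± 0.35, limma adjusted p = 0.01) and read 10.37 in lacZ, with a limma adjusted p of 0.0516 against Klf4 alone. The count of 800 fell to 387 without OSKM, 421 without OK+9MS and 519 without EB-C5.

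Of the lists for other cell types, 4 single genes were called against Klf4 alone, where 17.4% of all genes were called. These lists held 11 macrophage and blood cell, 11 endothelial, 11 skeletal muscle and 8 neural crest and glial genes. Tek, the angiopoietin receptor, read 9.72, 9.05, 10.03 and 9.36 against 7.95 and 7.88 and 6.24 in lacZ, and rose by 1.62 ± 0.25. Esam, counted among endothelial markers, read 6.63, 6.29, 6.53 and 6.50 against 8.13 and 8.65 (-1.90 ± 0.15). Skeletal actin (Acta1) fell (-1.24 ± 0.21), and so did the receptor Erbb3 of the glial list (-0.65 ± 0.12), with 9.73 to 10.05 in the other cassettes. No macrophage or blood cell marker was called.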

How the data were processed

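Expression was measured on 11 Affymetrix mouse gene arrays, 1 per construct. The authors deposited log2 values made with RMA, per the submitters' processing notes, which give no version. They were used as deposited, with no filter. Of 28856 probe sets, 21789 carry 1 gene symbol in the platform annotation, 1621 several and 5446 none. Each of 19938 genes was read from the probe set with the highest mean, and 999 genes had several. The number of arrays limits the precision.

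limma 3.58.1 (R 4.3.3) fitted 4 group means (short-Klf4 cassettes, Klf4 alone, other cassettes, lacZ) over 11 arrays, with 7 residual degrees of freedom and Benjamini-Hochberg adjustment over all genes. The Klf4-alone arrays are thus assumed to vary like the cassettes. P-values measure the spread between constructs, which were each measured once. An exact permutation of 4 against 2 arrays has 15 splits and a smallest two-sided p of 0.0667, so none was used. On simulated data for 4 against 2 arrays, 200 of 19938 genes were changed. Of those changed by 1 log2 unit 81% were recovered, and of those changed by 2 units 97%, with 6 false calls. The simulated noise was independent between genes and arrays, with the same spread for a gene on every array. In the data the Klf4 pair was closer (SD 0.126) than pairs of short-Klf4 cassettes (0.301 to 0.403). The simulated rates therefore give no error rate for the real calls.

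The text names the 15 largest called increases and the 15 largest called decreases, up to 4 called genes of each of 48 lists, the 4 factors, the 8 called genes of widest range over the short-Klf4 cassettes at a difference of 2 units or more, and the 5 largest differences in each direction against the other cassettes. A further 37 genes were chosen after their values were seen. The comparison and the lists were chosen with earlier results of these data known. Of 884 list entries 831 were measured. Alternatives were leaving out each array, the 2 groups alone, the mean of a gene's probe sets, a filter on dim genes, a trended robust prior, quantile normalization and, added after seeing the data, Klf4S and Klf4L averaged and counted once.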

Additional observations from a re-analysis of the deposited data

Results flagged for a closer look

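Over the 4 short-Klf4 cassettes, 253 values (named genes and list means) were checked for an array whose gap to its nearest neighbour exceeded Dixon's critical share of the range, which chance gives in about 5% of such groups of unselected values, and 26 values were found. The genes checked include some named for their wide range over these cassettes or after their values were seen, so the number found is a description and cannot be set against that rate. STEMCCA was the array apart for 13 of them.

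Of these, 4 genes that read higher in the cassettes than in Klf4 alone were lowest in STEMCCA. Nefl was at 8.89 with the other 3 cassettes at 11.53 to 11.77, Adap1 at 7.92 with 9.94 to 10.11, Hpdl at 7.74 with 9.74 to 10.08 and the transcription factor Tfap2a at 8.20 with 8.82 to 8.89. Of genes that read lower in the cassettes, 3 were nearest to Klf4 alone in STEMCCA: Mmp19 at 10.04 with 8.90 to 8.96 in the others, Cnfn at 7.51 with 7.04 to 7.09 and Snai2 at 11.08 with 10.26 to 10.32. Serpinb11 was at 4.80, within 0.1 of the others and at background. Means of 5 lists had the same array apart: collagens 10.17 with 9.41 to 9.49, matrix proteins 11.79 with 10.97 to 11.08, fibroblast markers 10.20 with 9.57 to 9.64, WNT genes 8.49 with 8.12 to 8.17 and interferon response genes 9.44 with 8.42 to 8.56.

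OKMS was apart for epithelial and pluripotency genes. Krtdap was at 10.19 with 5.59 to 6.18 in the other 3, Utf1 at 10.89 with 6.64 to 7.25, Krt8 at 11.61 with 9.18 to 9.35, Dkkl1 at 8.61 with 6.41 to 6.65 and Mal2 at 8.11 with 6.11 to 6.33. Its means were 7.39 for basal keratins with 6.74 to 6.79, 6.90 for uroplakins with 6.73 to 6.76 and 6.94 for endothelial markers with 6.81 to 6.83. EB-C5 was apart for Lin28a at 11.66 with 6.74 to 6.96, and for Fbxo15 at 7.84 with 5.43 to 5.75. WTSI was apart for the cysteinyl-tRNA synthetase Cars at 9.32 with 9.59 to 9.62, and in its means of macrophage and blood cell markers (6.28 with 6.19 in the others) and skeletal muscle markers (6.83 with 6.70 to 6.72).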

How the results depend on the processing

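No paired analysis was possible because the labels give no replicate numbers. The 3469 calls against Klf4 alone ranged from 319 to 5169 over fits that left out 1 array (342 without Klf4S, 319 without Klf4L, 2156 without OKMS, 5169 without STEMCCA) and were 286 with Klf4S and Klf4L averaged and counted once, an alternative chosen after seeing the data. The 1124 calls of 2-fold or more ranged from 235 to 1768 (250 without Klf4S, 235 without Klf4L, 1768 without STEMCCA) and were 215 with the Klf4 arrays counted once. Leaving out a Klf4 array makes the smaller group smaller and also takes the close Klf4 pair out of the spread. The part of each in the fall was not tested, nor was the cause of the rise without STEMCCA. The 800 calls against the other cassettes were 504 in a fit of these 2 groups only, and ranged from 387 to 946 without 1 array (387 without OSKM, 421 without OK+9MS, 519 without EB-C5). Mean probe sets, the dim-gene filter, the trended robust prior and quantile normalization gave 3339 to 3860 calls, 1108 to 1230 at 2-fold or more and 780 to 880 against the other cassettes. Under quantile normalization 1777 were higher and 1562 lower, a split of 53.2% higher against 47.1%. Of the 172 called genes named, 139 were called in the 2-group fit, 138 to 170 without 1 cassette, 61 without Klf4S, 55 without Klf4L and 54 with these counted once, and none turned its direction. Since the 172 had been chosen from the calls of the full fit, a kept direction was largely set by that choice. The difference of Klf4 itself, not called, was 0.10 in the full fit, 0.22 without Klf4S and -0.01 without Klf4L. Probes at background bound the lower side of large differences.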

Other observations

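Metabolic genes outside nucleotide synthesis were mostly not called, where 8.2% of all genes were called higher and 9.2% lower. Of 17 genes in the glycolysis list 1 rose, Slc2a3 (median of the list -0.01). The list includes Pigq, a gene of GPI anchor synthesis and not of glycolysis (0.27, not called). List means were 11.40, 11.26, 11.04 and 10.90 in OKMS, STEMCCA, EB-C5 and WTSI against 11.00 and 10.94 in Klf4S and Klf4L. Of 25 genes of oxidative phosphorylation 1 rose, Uqcrfs1, an iron-sulphur subunit of complex III (0.69 ± 0.20, limma adjusted p = 0.0474), though 22 had a difference above 0. Without STEMCCA 5 were called higher, in a fit that called 2251 of all 19938 genes higher. Cytochrome c (Cycs) read 12.02, 12.15, 12.84 and 13.00 against 11.16 and 11.53, with WTSI and EB-C5 the highest, and was not called (limma adjusted p = 0.0559). Of 16 sterol synthesis genes Dhcr7 rose by 0.65 and Sc5d fell by 0.43, and 3 were lower than in the other 4 cassettes. Of 17 genes of translation initiation and tRNA charging, Vars and Iars rose by 0.75 and 0.42, and Cars fell by 0.43.

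Among 16 Kruppel-like factors, relatives of Klf4, Klf3, a repressor that binds CACCC-type sequences, was called lower at 10.90, 10.62, 10.65 and 10.84 against 11.20 and 11.23 (-0.47 ± 0.11, limma adjusted p = 0.0218), and it was lower than in the other cassettes too (-0.57 ± 0.09, limma adjusted p = 0.00946). The call against Klf4 alone was lost without Klf4S and without Klf4L. Klf5 read 8.76, 8.88, 9.12 and 9.47 against 8.58 and 8.69, and Klf6 read 9.41, 10.39, 9.65 and 10.12 against 10.65 and 10.69, with neither called. Klf8 read 9.74, 8.50, 9.58 and 9.43 against 8.36 and 8.51, and STEMCCA alone of the 4 cassettes lay within the range of Klf4 alone.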
